A study of Sus scrofa with 6 samples.

Results

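The genes described here encode the translation factors and aminoacyl-tRNA synthetases of porcine granulosa cells (GCs). The rule that picks them uses gene names and no measured value. A gene was taken when its Ensembl name, or its name in the tables of the study, began with *EIF*, *EEF*, *ETF1*, *GSPT* or *AIMP*, or was a letter followed by *ARS*, with or without S, 1 or 2 at the end. The 3 kinases of eIF2 found by name (*EIF2AK1*, *EIF2AK2* and *EIF2AK3*) were left out. This gave 71 of the 17950 genes in the table, and 69 of them had a mean of at least 1 FPKM over both groups.

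GCs were aspirated from ovarian follicles of pre-pubertal Landrace gilts, cultured, and exposed for 72 h to lentivirus. The pLVX-*RBP4* group received virus carrying porcine *RBP4*, the carrier of retinol in plasma, together with the ZsGreen reporter (pLVX-*RBP4*-IRES-ZsGreen). The CTRL group received the same vector without *RBP4* (pLVX-IRES-ZsGreen), so that both groups shared infection and reporter. Each group comprised 3 RNA-seq libraries, but the deposited table holds 1 FPKM value (fragments mapped, scaled to transcript length and to the mapped total) per gene and group. Values of single libraries are not analysed here, so no replicate error, p-value or test between the groups was computed from these values, and every difference stated here is a description of these pooled values.

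Protein synthesis starts when eukaryotic initiation factors (eIFs) bring the initiator tRNA and the small ribosomal subunit to the capped end of an mRNA, from where the complex scans to the start codon. Elongation factors (eEFs) then deliver charged tRNAs and move the ribosome along, and release factors free the finished protein at a stop codon. The aminoacyl-tRNA synthetases charge each tRNA with its amino acid, with separate nuclear-encoded sets for the cytosol and, for most amino acids, for the mitochondria. GCs are secretory, steroidogenic cells that divide during follicle growth, and both activities draw on this machinery.

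*RBP4* had 1.10 FPKM in CTRL and 92.3 FPKM in pLVX-*RBP4* GCs, which fits the labels. Of 13 granulosa markers, 6 were found by symbol and all 6 had a mean of at least 1 FPKM, among them *CYP11A1*, which starts steroid synthesis (673 and 669 FPKM in CTRL and pLVX-*RBP4*), and *FSHR*, the receptor for follicle-stimulating hormone (9.99 and 8.47 FPKM). Of the 6, 2 were higher in pLVX-*RBP4* GCs, *FST* (20.5 and 24.7 FPKM) and *AMHR2* (1.22 and 1.25 FPKM), and 4 were lower. Markers of other cells were present too. The 5 stromal markers found summed to 775 FPKM in CTRL and 913 FPKM in pLVX-*RBP4* GCs, and 4 of the 5 were higher in the latter. Of the 4 leukocyte markers, 3 were higher in pLVX-*RBP4* GCs and summed to 48.0 and 54.8 FPKM, most of it *CD14*, while *PTPRC*, which defines leukocytes, had 0.229 and 0.166 FPKM. The 2 endothelial markers found summed to 19.9 and 19.0 FPKM. The 2 theca markers found, *INSL3* and *LHCGR*, were below 1 FPKM in both groups, and *GDF9* was the oocyte marker found (3.36 and 3.51 FPKM). The part that a different share of such cells may have in the values below was not tested, and in bulk RNA fewer cells of a type and less RNA per cell cannot be told apart.

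The translation genes were abundant. In all, 23 of the 71 (32.4%) ranked among the 1000 genes with the highest mean FPKM, against 5.57% of all genes. Levels can be compared between genes here because FPKM is scaled to transcript length. The highest was *EEF2*, the factor that translocates the ribosome, which ranked 60th of all genes with 1713 FPKM in CTRL and 1654 FPKM in pLVX-*RBP4* GCs. Next came *EEF1B2*, part of the exchange factor that reloads eEF1A with GTP (544 and 666 FPKM), and *EIF4EBP1*, which holds back the cap-binding protein eIF4E (559 and 605 FPKM). *EIF1*, a guardian of start codon choice, followed with 544 and 549 FPKM. At the other end, *YARS2*, the mitochondrial tyrosyl-tRNA synthetase, had 0.275 and 0.319 FPKM. *EIF4E1B*, a paralogue of eIF4E known from oocytes, was listed at 0 in CTRL and at 0.0753 FPKM in pLVX-*RBP4* GCs. Those last genes are the 2 that did not reach a mean of 1 FPKM. Genes of the family that were not found under their symbols, among them *EEF1A1*, *EIF5A*, *EIF2S1* and *EIF4B*, are not analysed here.

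**Figure D1:**
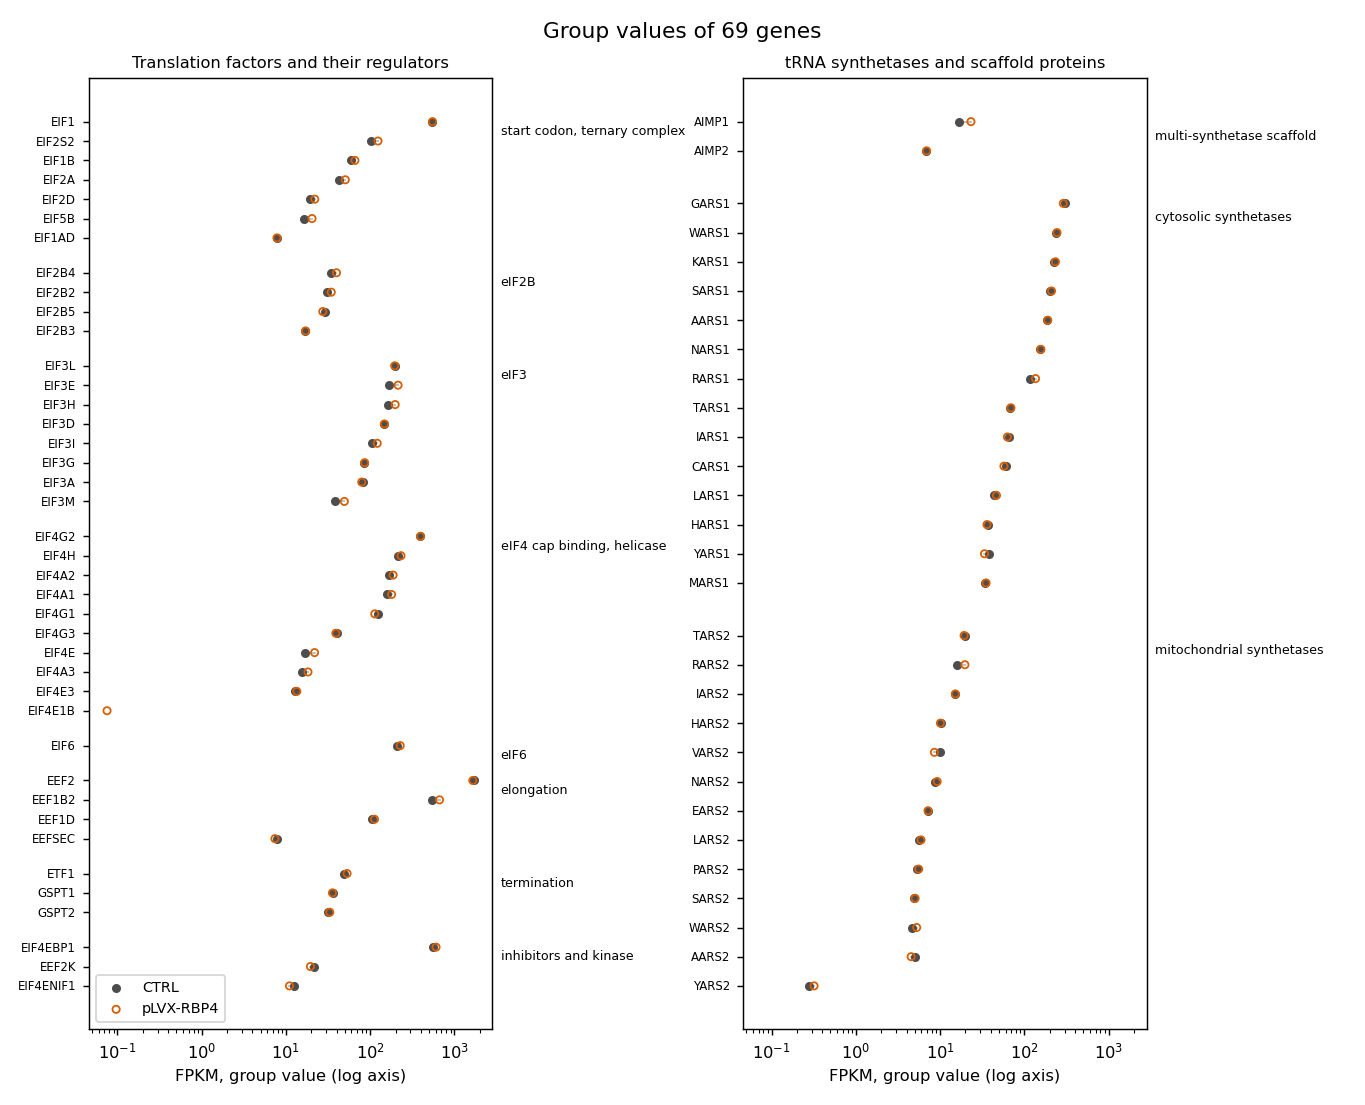
FPKM of 69 of the 71 genes in the CTRL group (filled grey points) and the pLVX-RBP4 group (open orange points), 1 value per group, on a log axis, arranged by role and by level within a role. The points of a gene lie close together compared with the range between genes, which runs from under 1 FPKM to 1713 FPKM, and EIF4E1B has no CTRL point because it is listed at 0 there.

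The difference between the groups was taken as log2(FPKM + 1) in pLVX-*RBP4* GCs minus that in the CTRL group. With a positive value in 49 and a negative value in 20 of the 69 genes, 71.0% had the higher level after *RBP4* infection, where 50.2% of the 12382 genes with a mean of at least 1 FPKM were higher and 49.8% lower. At a mean of at least 5 FPKM it was 47 of 66 genes (71.2%), against 52.0% of all genes. The median difference of the 69 genes was 0.051, against 0.0014 for all genes. The direction of small differences rested on the scaling of the groups. With both groups scaled to a common upper quartile, 36 of the 69 genes (52.2%) and 43.4% of all genes had the higher level in pLVX-*RBP4* GCs. With both scaled to the same total, these were 61 (88.4%) and 64.9%. The total was 1.13e+06 FPKM in CTRL and 1.07e+06 FPKM in pLVX-*RBP4* GCs. The highest single value was 399775 FPKM in CTRL and 276137 FPKM in pLVX-*RBP4* GCs, so scaling to the total rests in large part on the highest values. The distance between the median of these genes and that of all genes was 0.047 to 0.056 over these scalings and that to a common median. A scaling adds nearly the same amount to every log2 ratio, so this distance could hardly change. At a mean of at least 5 FPKM, without rescaling, it was 0.038. As deposited and under all 3 scalings tried, 36 genes were higher, 8 were lower, and 25 had a direction that depended on the scaling. These scalings shifted log2 ratios by -0.038 (upper quartile) to 0.080 (same total). A gene therefore needed a smaller difference to count as higher than to count as lower. The same classes were not counted over all genes.

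Differences were small in this machinery. A difference of at least 0.25 upward was reached by 9 of the 69 genes (13.0%), against 12.2% of all genes, so their share was near the background. This count was 7 with upper quartile scaling and 15 with both groups scaled to the same total. No gene of the 69 was lower by 0.25 or more, where 9.58% of all genes were. None differed by 0.5 or more in either direction, where 2.21% of all genes were higher and 1.84% lower by that much. At a mean of at least 5 FPKM, 7.29% of all genes were lower by 0.25 or more. By 0.5 or more, 1.73% were higher and 1.13% lower at that floor. The part that the high level of these genes may have in their small differences was not tested. The FPKM values of the 2 groups lay within 10% of each other for 43 of the 69 genes (62.3%), and for 49.3% of the 12329 genes at this floor with values above 0 in both groups. The 9 genes higher by at least 0.25 were *AIMP1*, *EIF3M*, *EIF3E*, *EIF4E*, *RARS2*, *EEF1B2*, *EIF5B*, *EIF3H* and *EIF2S2*. Of these, 6 encode initiation factors, 1 an elongation factor, 1 a synthetase and 1 a scaffold protein.

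The factors and the synthetases differed in their medians. The 36 initiation, elongation and termination factors had a median of 0.12, with 27 higher (75.0%) and 7 higher by at least 0.25 (19.4%). The 28 synthetases had a median of 0.022, with 19 higher (67.9%) and 1 higher by at least 0.25 (3.57%). Of all genes, 50.2% were higher and 12.2% higher by at least 0.25. After upper quartile scaling the medians were 0.081 and -0.015, with 22 of 36 and 12 of 28 higher. All genes then had a median of -0.033, with 43.4% higher. Values within 10% of each other were found for 21 of 28 synthetases (75.0%) and for 20 of 36 factors (55.6%). With 1 value per group, whether the sets differ beyond replicate error was not tested.

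**Figure D2:**
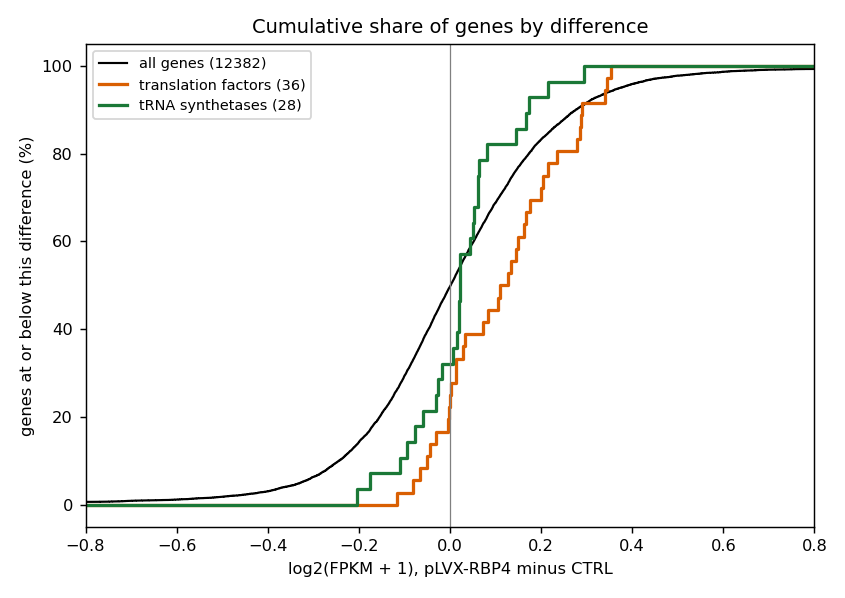
Cumulative percentage of genes (vertical axis) at or below a given difference in log2(FPKM + 1), pLVX-RBP4 minus CTRL (horizontal axis), for all 12382 genes with a mean of at least 1 FPKM, 36 translation factors and 28 tRNA synthetases. The curve of the factors lies to the right of that of all genes over most of its course, with a median of 0.12. The synthetases rise steeply around their median of 0.022. After upper quartile scaling the synthetase median is -0.015, against -0.033 for all genes. Neither set has a gene lower by 0.25 or more.

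The factors that set up the ternary complex and find the start codon were higher as a set, with a median of 0.18, or 0.14 after upper quartile scaling. Of these 7 genes, 6 were higher (5 after upper quartile scaling), and 2 by at least 0.25. The shares over all genes were 50.2% (43.4%) and 12.2%. *EIF5B*, the GTPase that joins the ribosomal subunits, had 16.5 FPKM in CTRL and 20.4 FPKM in pLVX-*RBP4* GCs, a difference of 23.3%. *EIF2S2*, the beta subunit of the eIF2 complex that carries the initiator tRNA, had 102 and 124 FPKM (21.5% higher). The alternative initiation factors *EIF2A* (42.9 and 50.7 FPKM) and *EIF2D* (19.4 and 22.0 FPKM), which can deliver tRNA without eIF2, were 18.2% and 13.7% higher. *EIF1* and its close paralogue *EIF1B* gave unequal differences. *EIF1* was 0.896% higher, whereas *EIF1B* had 59.5 and 65.9 FPKM (10.8% higher), and the level of *EIF1* was 9.14 times that of *EIF1B* in CTRL and 8.33 times in pLVX-*RBP4* GCs. *EIF1AD*, a relative of eIF1A, had 7.84 and 7.83 FPKM. How reads were divided between near-identical genes such as *EIF1* and *EIF1B*, and their processed copies elsewhere in the genome, is not known from the values.

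eIF2B reloads eIF2 with GTP and is the point at which phosphorylated eIF2 blocks initiation. Its 4 subunits found by name went both ways, with a median of 0.088. *EIF2B4* (34.2 and 39.8 FPKM) and *EIF2B2* (30.7 and 34.5 FPKM), subunits of its regulatory core, were 16.6% and 12.3% higher. *EIF2B5*, the catalytic subunit, had 29.1 and 27.4 FPKM (5.69% lower), and *EIF2B3* had 17.0 and 17.1 FPKM. *EIF2B5* was lower under every scaling tried.

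eIF3 is the largest initiation factor, a scaffold on the small ribosomal subunit that is assembled from many subunits, of which 8 were found. Of these, 4 had the higher value in pLVX-*RBP4* GCs by 15.0% or more and 4 nearly equal. *EIF3M* had 38.4 FPKM in CTRL and 49.4 FPKM in pLVX-*RBP4* GCs (28.4% higher). *EIF3E* had 169 and 214 FPKM (27.1% higher), and *EIF3H* had 162 and 198 FPKM (22.0% higher). All 3 belong to the structural octamer of the complex, as do *EIF3A* and *EIF3L*, whose values were nearly equal between the groups. *EIF3I*, a beta-propeller subunit, had 105 and 121 FPKM (15.0% higher). The other 4 subunits differed by at most 3.08% between the groups. These were *EIF3A* (82.0 and 79.5 FPKM), around which the complex is built, *EIF3D* (147.4 and 147.4 FPKM), which can bind the mRNA cap, *EIF3G* (84.3 and 85.9 FPKM) and *EIF3L* (195 and 195 FPKM). The direction of these 4 depended on the scaling. Ratios of levels within the complex thus differed between the groups in the deposited values. *EIF3L* was the most abundant subunit in the CTRL group, at 1.16 times the level of *EIF3E*, and stood at 0.912 times that level in pLVX-*RBP4* GCs. *EIF3E* was 2.06 times as abundant as *EIF3A* in CTRL and 2.70 times in pLVX-*RBP4* GCs. *EIF3M* was the least abundant subunit in both groups. The median over the 8 was 0.11, with 6 higher (4 after upper quartile scaling) and 3 of the 8 higher by at least 0.25. The shares over all genes were 50.2% (43.4%) and 12.2%.

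The eIF4 factors bind the cap and unwind the leader of the mRNA. *EIF4E*, the cap-binding protein itself, had 17.1 FPKM in CTRL and 21.9 FPKM in pLVX-*RBP4* GCs, 28.2% higher. Its partner *EIF4G1*, the scaffold that links eIF4E to the helicase and to eIF3, had 123 and 113 FPKM and was 7.79% lower. The level of *EIF4G1* was thus 7.21 times that of *EIF4E* in CTRL and 5.18 times in pLVX-*RBP4* GCs. The helicases *EIF4A1* (160 and 180 FPKM) and *EIF4A2* (169 and 187 FPKM) were 12.4% and 10.9% higher, and their ratio to each other was 0.947 and 0.960. *EIF4A3*, a relative that serves in the exon junction complex, had 15.7 and 18.3 FPKM. *EIF4H*, which stimulates the helicase, had 212 and 232 FPKM. *EIF4G2*, a scaffold without a binding site for eIF4E, was the most abundant of the set (387 and 397 FPKM). *EIF4G3* (40.0 and 39.2 FPKM) and *EIF4E3* (12.8 and 13.5 FPKM) were less abundant relatives. Over the 9 genes with a mean of at least 1 FPKM, 7 were higher, or 6 after upper quartile scaling, with a median of 0.13. Over all genes 50.2% were higher, or 43.4% after that scaling.

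**Figure D3:**
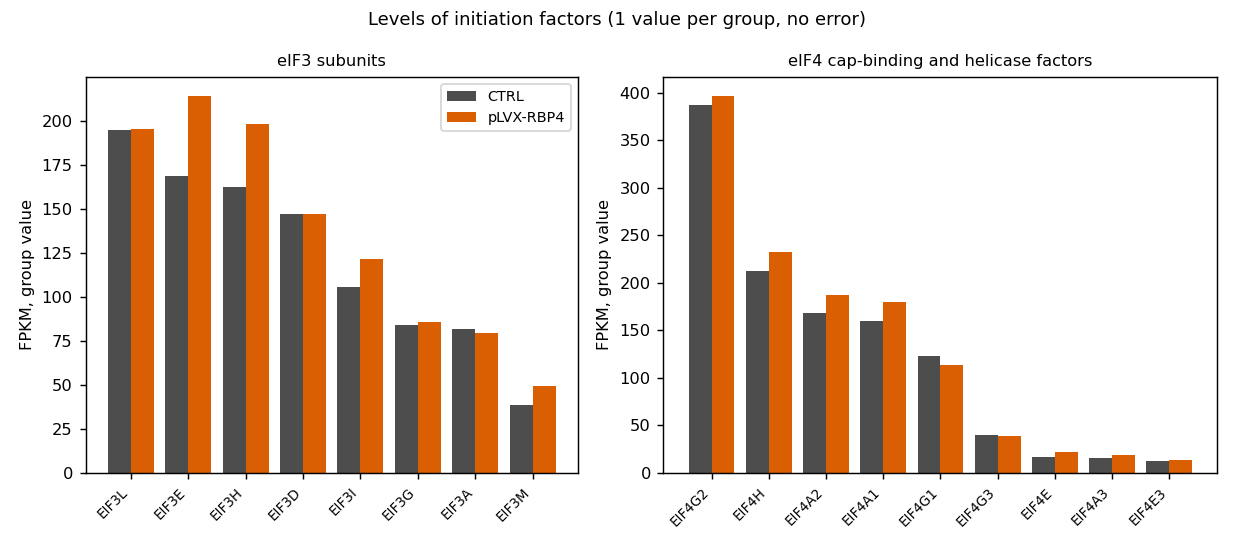
FPKM of the 8 eIF3 subunits (left) and of 9 eIF4 factors with a mean of at least 1 FPKM (right) in the CTRL group (grey bars) and the pLVX-RBP4 group (orange bars), 1 value per group without error bars. EIF3E, EIF3H, EIF3I and EIF3M have taller orange bars, EIF3A, EIF3D, EIF3G and EIF3L have bars of nearly equal height, and EIF4G1 is lower while EIF4E is higher in the pLVX-RBP4 group.

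Proteins that restrain the translation factors were few. *EIF4EBP1* competes with eIF4G for eIF4E and was 8.25% higher in pLVX-*RBP4* GCs. Per length, its level was 32.8 times that of *EIF4E* in CTRL and 27.7 times in pLVX-*RBP4* GCs. *EIF4ENIF1*, which carries eIF4E into the nucleus and to P-bodies, had 12.6 and 11.0 FPKM (12.3% lower). *EEF2K*, the kinase that inactivates eEF2, had 21.7 and 19.5 FPKM (10.0% lower), and both of these were lower under every scaling tried. *EIF6*, which keeps the large ribosomal subunit from joining too early, had 207 and 227 FPKM (9.74% higher).

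Elongation factors differed in direction. *EEF1B2* was 22.3% higher, and *EEF1D*, another subunit of the same exchange factor, had 104 and 113 FPKM (7.92% higher). The level of *EEF1B2* was 5.22 times that of *EEF1D* in CTRL and 5.91 times in pLVX-*RBP4* GCs. *EEF2* was 3.45% lower, and *EEFSEC*, which delivers selenocysteine, had 7.81 and 7.41 FPKM (5.06% lower). The last 2 were higher with both groups scaled to the same total. The median of the 4 genes was 0.029, or -0.0086 after upper quartile scaling, where that of all genes was -0.033.

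Termination genes were close to equal. *ETF1*, the release factor that reads the stop codon, had 49.4 and 53.2 FPKM (7.69% higher). Its GTPase partners *GSPT1* (35.8 and 35.7 FPKM) and *GSPT2* (31.2 and 33.1 FPKM), an intronless copy of it, differed by -0.362% and 6.08%. The median of the 3 was 0.083.

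Several cytosolic synthetases are held in a large complex by scaffold proteins. *AIMP1*, a scaffold protein of this complex that binds tRNA, had 16.9 FPKM in CTRL and 23.3 FPKM in pLVX-*RBP4* GCs. This was the largest difference of all 69 genes (37.9% higher, 0.44 on the log2 scale). *AIMP2*, the other scaffold found, had 6.90 and 6.93 FPKM, a direction that turned after upper quartile scaling. The ratio of *AIMP1* to *AIMP2* was 2.44 in CTRL and 3.36 in pLVX-*RBP4* GCs. Without *AIMP1* the median over the remaining 68 genes was 0.048, and 8 were higher by at least 0.25.

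The 15 synthetases classed by name as cytosolic had a median difference of 0.022. After upper quartile scaling it was -0.016, against -0.033 for all genes. Of these, 10 were higher and 5 lower (6 and 9 after upper quartile scaling), and none by 0.25 or more. Over all genes 50.2% were higher (43.4% after that scaling), and 12.2% were higher and 9.58% lower by at least 0.25. Their levels in the CTRL group ran from 34.6 FPKM for *MARS1* (methionine) to 302 FPKM for *GARS1* (glycine). *RARS1*, the arginyl-tRNA synthetase that sits next to AIMP1 in the complex, differed most, with 117 and 136 FPKM (16.3% higher). The abundant enzymes were nearly level. *GARS1* had 302 and 290 FPKM, *WARS1* (tryptophan) 241 and 244 FPKM, *KARS1* (lysine) 226 and 234 FPKM, *SARS1* (serine) 201 and 210 FPKM, *AARS1* (alanine) 187 and 190 FPKM and *NARS1* (asparagine) 155 and 157 FPKM, none of them more than 5% apart. On the lower side, *YARS1* (tyrosine) had 38.2 and 33.7 FPKM (11.8% lower) and *CARS1* (cysteine) had 61.3 and 57.3 FPKM (6.42% lower). *IARS1* (isoleucine; 66.6 and 63.1 FPKM) and *HARS1* (histidine; 36.9 and 36.1 FPKM) were 5.28% and 2.20% lower. *LARS1* (leucine; 44.1 and 46.7 FPKM), *TARS1* (threonine; 66.9 and 69.4 FPKM) and *MARS1* (34.6 and 35.2 FPKM) were 5.86%, 3.69% and 1.64% higher.

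**Figure D4:**
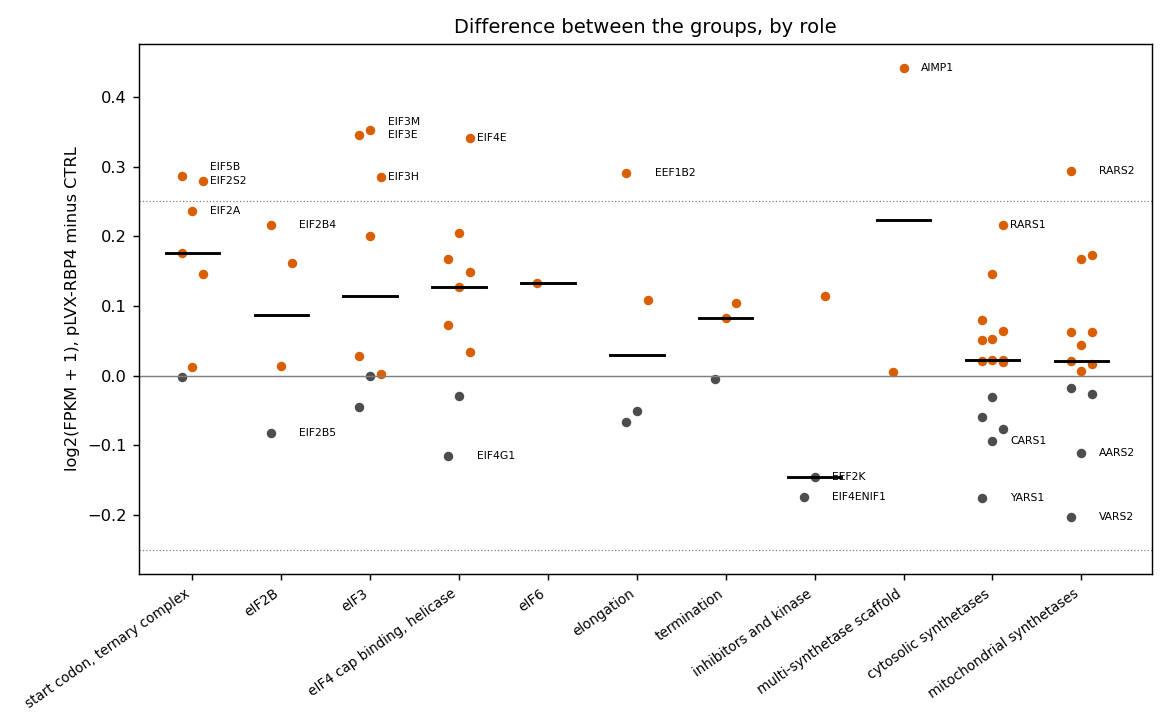
Difference in log2(FPKM + 1), pLVX-RBP4 minus CTRL, for the 69 genes with a mean of at least 1 FPKM by role, with 1 point per gene (orange above 0, grey below), black bars for the median of a role and dotted lines at 0.25 in either direction. AIMP1 is the highest point at 0.44, 9 points lie above the upper dotted line, and no point lies below the lower one.

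The mitochondrial synthetases, which serve the translation of the mitochondrial genome, were expressed at lower levels. The 13 with a mean of at least 1 FPKM had a median of 7.16 FPKM in the CTRL group, against 69.0 FPKM for the 15 enzymes classed by name as cytosolic. Their median difference was 0.021, with 9 of 13 higher, against 50.2% of all genes. After upper quartile scaling it was -0.011 with 6 of 13 higher, against -0.033 and 43.4% for all genes. *RARS2* had 15.9 and 19.7 FPKM (24.0% higher) and was the only synthetase to reach 0.25. *WARS2* (4.59 and 5.28 FPKM) was 15.0% higher at a low level. *VARS2* (valine) had 10.0 and 8.57 FPKM, 14.5% lower and the lowest difference of the 69 genes, and *AARS2* had 4.98 and 4.54 FPKM. *TARS2*, the most abundant of the set in the CTRL group, had 19.5 and 19.3 FPKM. A further 7, for glutamate, histidine, isoleucine, leucine, asparagine, proline and serine, differed by -1.98% (*HARS2*) to 5.22% (*LARS2*).

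Cytosolic and mitochondrial enzymes for the same amino acid were set side by side for 9 amino acids with both genes at a mean of at least 1 FPKM. In the CTRL group the cytosolic enzyme was 3.42 times (threonine) to 52.4 times (tryptophan) as abundant. In 5 of the 9 pairs both genes were higher in pLVX-*RBP4* GCs, in 1 both were lower, and 3 were split. Of all genes taken singly, 50.2% were higher, and no count was made over other pairs of genes. Of the 5 pairs with both genes higher, arginine and leucine kept this under every scaling tried. Arginine was the pair with the largest differences, with 0.22 for *RARS1* and 0.29 for *RARS2*. Tyrosine, with *YARS2* below the floor, was not counted.

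**Figure D5:**
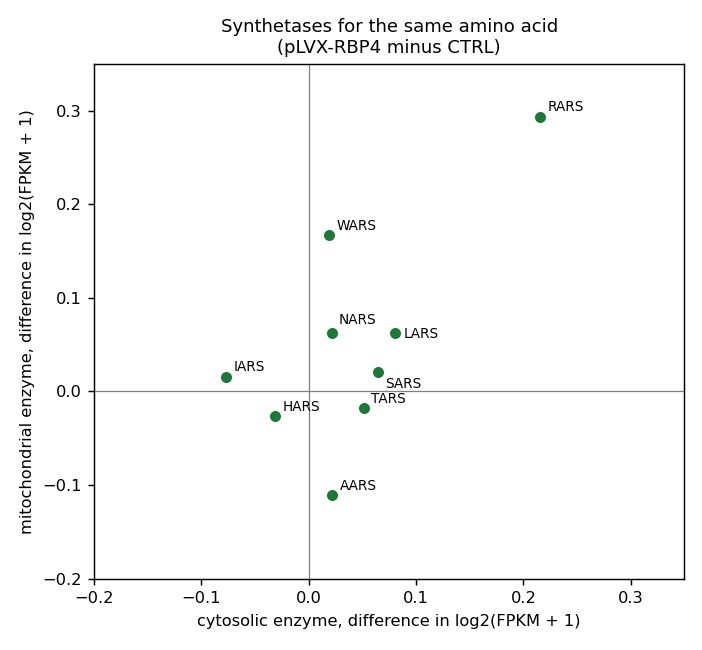
Difference in log2(FPKM + 1), pLVX-RBP4 minus CTRL, of the cytosolic enzyme (horizontal axis) and of the mitochondrial enzyme (vertical axis) for 9 amino acids, with 1 point per amino acid named by the shared part of the gene symbols. Arginine (RARS) lies farthest to the upper right, and 5 of the 9 points lie above 0 on both axes in the deposited values, 2 of them (RARS and LARS) under every scaling tried.

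Other genes that act on translation were read from lists, with 12.2% of all genes higher and 9.58% lower by at least 0.25. Of all genes, 50.2% were higher, 43.4% after upper quartile scaling and 64.9% with both groups scaled to the same total. The medians of all genes were 0.0014, -0.033 and 0.072, in the same order. The kinases of eIF2 and the phosphatase that reverses them lay close to 0, with 3 of 8 genes higher (5 with both groups scaled to the same total), a median of -0.0099 (0.067 with both groups scaled to the same total) and none past 0.25. *PPP1CC*, a catalytic subunit of the phosphatase, was the highest of them (41.5 and 46.1 FPKM), and *EIF2AK2*, the kinase that senses double-stranded RNA, the lowest (7.66 and 6.75 FPKM). The integrated stress response is set off when eIF2 is phosphorylated. Of the 16 genes listed for it, 9 were found by symbol, and *ATF4*, *DDIT3*, *TRIB3*, *CHAC1* and *CEBPB* were among those not found. Of the 9 genes, 6 were higher (9 with both groups scaled to the same total), with a median of 0.067 (0.14 with that scaling). The 2 past 0.25 were enzymes of serine synthesis, *PSAT1* (209 and 254 FPKM) and *PHGDH* (128 and 155 FPKM). *ASNS*, which makes asparagine and is a standard marker of this response, had 169 and 167 FPKM, and *SESN2* had the lowest difference, with 28.7 and 27.7 FPKM. A further list covered mTORC1, the kinase complex that phosphorylates EIF4EBP1, together with genes that act upstream or downstream of it or otherwise regulate initiation at the cap. Of its 12 genes found, 5 were higher (3 after upper quartile scaling). The median was -0.036 (0.037 with both groups scaled to the same total). The differences ran from *LARP1*, which represses the mRNAs of ribosomal proteins and elongation factors (61.5 and 51.8 FPKM), to *RHEB*, the activator of mTORC1 (212 and 248 FPKM).

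Genes for poly(A) binding and ribosome recycling had 7 of 10 higher and a median of 0.084. Over all genes 50.2% were higher, or 64.9% with both groups scaled to the same total, and 12.2% were higher by at least 0.25. *ABCE1*, which splits ribosomes after termination, had 25.6 and 31.4 FPKM and *PAIP2*, an inhibitor of poly(A)-binding protein, had 83.0 and 99.6 FPKM, both past 0.25, while *ABCF1* had 27.6 and 24.9 FPKM. The 4 genes found that modify eIF5A or eEF2 had a median of 0.042, from *DHPS* (20.4 and 20.2 FPKM) to *DPH1* (12.4 and 13.9 FPKM). Of 9 mitochondrial translation factors, 5 were higher (8 with both groups scaled to the same total), with a median of 0.031. After upper quartile scaling their median was -0.0024, against -0.033 for all genes. *MTRF1L*, a mitochondrial release factor, had 5.27 and 6.72 FPKM and *MRRF*, the mitochondrial recycling factor, had 13.8 and 16.9 FPKM, both past 0.25, and *MTRF1* had 4.34 and 4.04 FPKM. The synthetases that the name rule did not take in were *EPRS1* (glutamate and proline; 71.3 and 65.3 FPKM), *FARSA* (phenylalanine; 13.7 and 14.6 FPKM) and *TARS3* (1.53 and 1.32 FPKM), with 1 of 3 higher and a median of -0.12.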

How the data were processed

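RNA of porcine GCs was sequenced by the authors, aligned to Sscrofa10.2 (named in the submitters' processing notes) with TopHat2, and summarised with Cufflinks. The authors gave expression as FPKM, and the deposited table has 1 such value for each gene and group of 3 libraries. Versions and the annotation are not given in the sources used here. Both columns of values were used and 0 were left out. The table holds no counts, so the depth behind each value is unknown.

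Symbols were found for 10757 of 17950 genes. The difference of log2(FPKM + 1) was computed, with a floor of 1 FPKM on the mean of both groups. This scale understates the change of weakly expressed genes. The planned fit by limma needs values per library and was not made, and sequences were not analysed here. The members and lists were chosen with earlier results of these data known. Every member may be named, but 2 that enter the counts and medians are not reported singly here, in the text or the plots of levels and pairs. The 12 largest increases and 8 largest decreases at a mean of at least 5 FPKM, the most abundant member and the extremes of each role, members listed at 0 and the extremes of each other list were singled out. The other genes of the text (*PTPRC*, *CD14*, *ASNS* and cell markers, *PHGDH*, *PAIP2*, *MRRF*) were named after their values were seen. The alternatives were pseudocounts of 0.1 and 0.01, scaling to a common median, upper quartile or sum, no floor, a floor of 5, the mean for the median, and members without inhibitors and kinase or without shared symbols. The log2 differences and their counts were checked on the CTRL values with known changes put in, which tests the arithmetic only. Calculations used Python 3.11.15, numpy 2.4.6 and pandas 2.3.3.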

Additional observations from a re-analysis of the deposited data

How the results depend on the processing

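In the absence of replicate error a median was taken as moved when it shifted by 0.1 or more on the log2 scale, and a count when it differed by more than 1.5 times. Of 502 values compared over 10 alternatives, 483 stayed within these limits, 11 moved, and 8 medians turned sign. The scalings shifted log2 ratios by at most 0.080, so under them a median or named gene could hardly move by 0.1. A pseudocount cannot change which genes are higher, and 0 members shared a symbol, so leaving such genes out changed nothing. Many of the 483 were thus fixed in advance and do not measure robustness. For single genes a change of sign was counted only where the deposited difference was at least 0.25 in size. Single genes with smaller differences that changed sign are therefore among the 483. Scaling the groups to a common upper quartile shifts every log2 ratio by -0.038 and gave a median of -0.033 for all genes, -0.0086 for elongation factors, -0.016 for cytosolic, -0.011 for mitochondrial and -0.015 for all synthetases, and -0.0024 for mitochondrial translation factors. It left 1 of 2 scaffold genes, 6 of 15 cytosolic and 12 of 28 synthetases, and 3 of 12 genes of mTORC1 and cap regulation higher. The share over all genes was 43.4%. Rescaling to a common sum shifts log2 ratios by 0.080, and gave 15 genes higher by at least 0.25 and all 4 elongation factors higher. Medians were then 0.067 (5 of 8 higher) for eIF2 kinases and phosphatase and 0.037 for the genes of mTORC1 and cap regulation. It put 8 of 9 mitochondrial translation factors higher. All genes had a median of 0.072 with this scaling, and 64.9% were higher. With a floor of 5 FPKM the synthetases outside the name rule had a median of -0.017, over 2 genes. *EIF4E1B*, listed at 0 in the CTRL group, moved with the pseudocount. No paired analysis was possible because the columns hold 1 value per group, and for the same reason no replicate could be left out.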
